A study of Saccharomyces cerevisiae with 8 samples.

Results

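The genes described here encode 10 amino acid permeases of the yeast plasma membrane: AGP1, GNP1, BAP2, BAP3, TAT1, TAT2, HIP1, LYP1, CAN1 and DIP5. They were chosen by systematic name from a table of 5545 genes, and all 10 passed the filter on low counts, which left 5488 genes to test. The data come from a study of polyamines and translation in Saccharomyces cerevisiae, which combined ribosome profiling with total RNA sequencing. In ribosome profiling, RNA is digested and the fragments shielded by ribosomes (here 17 to 34 nucleotides) are sequenced, and the count of these footprints on a gene tracks ribosome number on its mRNA. Every culture was a MATa strain with ura3-52, leu2 and deletions of SPE1 and SPE2, each replaced by LEU2. The strain thus lacked the products of SPE1 and SPE2, enzymes needed to make putrescine and spermidine. Cells grew at 30 °C in SD medium without added spermidine or with 10 µM spermidine, and were taken at an optical density between 0.6 and 0.7. The 4 groups were footprints at 0 and 10 µM and RNA at 0 and 10 µM, with 2 libraries in each. No group with intact SPE1 and SPE2 was analysed here, so each comparison is between unsupplied and supplied cultures of the same mutant.

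Amino acid permeases of this family are proton symporters with many membrane-spanning segments that bring amino acids in from the medium. Amino acids outside the cell are sensed at the plasma membrane by the SPS complex of Ssy1, Ptr3 and Ssy5, which releases the transcription factors Stp1 and Stp2 to induce several of these permease genes, among them AGP1, GNP1, BAP2, BAP3 and TAT1. Newly made permeases need the chaperone Shr3 to leave the endoplasmic reticulum, and are removed from the surface after ubiquitination by Rsp5, which finds them through arrestin-like adaptors.

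RNA libraries held 1786419 to 2884632 counts each and footprint libraries 3324344 to 7089928, and the 0 µM libraries were deeper in both assays. Levels are given as CPM, counts scaled to a common library total after adjustment for composition, so changes are relative to the typical gene. No label ties the replicates to separate cultures, and p-values then measure the spread between these libraries, which may be technical. Bulk libraries cannot tell fewer expressing cells from less RNA per cell. Below, F0a and F0b are footprint replicates 1 and 2 without spermidine and F10a and F10b those with it, and R0a, R0b, R10a and R10b are the RNA libraries in the same order. Reads on the deleted genes numbered 4 to 15 for SPE1 and 3 to 62 for SPE2 in each library, and the marker gene LEU2 stood at 912 to 2532 CPM. The a-type markers MFA1, MFA2, STE2 and BAR1 stood between 72.5 and 571 CPM in all 8 libraries, while the alpha-type genes STE3 and MF(ALPHA)1 stayed between 0.604 and 12.5 CPM.

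With spermidine supplied, the broad-range permease genes AGP1 and GNP1 and the branched-chain permease gene BAP2 fell by more than 2-fold in both RNA and footprints. BAP3 footprints fell and TAT1 footprints rose, with RNA log2 changes of 0.08 and 0.11 that were not called. The permease genes for basic and acidic amino acids and for histidine differed by 0.39 or less on the log2 scale in either assay. In footprints 5 of the 10 fell and 2 rose, and 3 were not called, at a Benjamini-Hochberg adjusted p under 0.05 from the quasi-likelihood test of edgeR. Over all tested genes 38.5% were called in footprints, 18.7% higher and 19.8% lower. In RNA 4 of the 10 fell and none rose, against 21.9% of all genes called, 8.45% higher and 13.5% lower. All genes called in RNA numbered 464 higher and 739 lower, against 560 and 624 with RLE size factors and 540 and 627 with library totals, and both of these scalings called 3 of the 10 permeases. The count of RNA rises was also 0 with DESeq2 and with limma voom, and 0 at an unadjusted edgeR p under 0.05. Over all tested genes these counts were 367, 417 and 823. The median log2 change of the 10 was -0.38 in footprints and -0.13 in RNA, beside -0.02 and 0.00 over all genes. A footprint log2 change below -1 was seen for 4 of the 10 (AGP1, GNP1, BAP2 and BAP3), and for 4.08% of all tested genes. In RNA 3 of the 10 (AGP1, GNP1 and BAP2) were below -1, against 2.24% of all genes, and in efficiency, the footprint change less the RNA change, 1 (BAP3) was, against 3.17%. The 2 libraries with spermidine lay wholly above or below those without it for 9 of the 10 in footprints, 3 higher and 6 lower, and for 72.6% of all genes. In RNA this held for 5 of the 10, all lower, and for 60.1% of all genes.

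**Figure D1:**
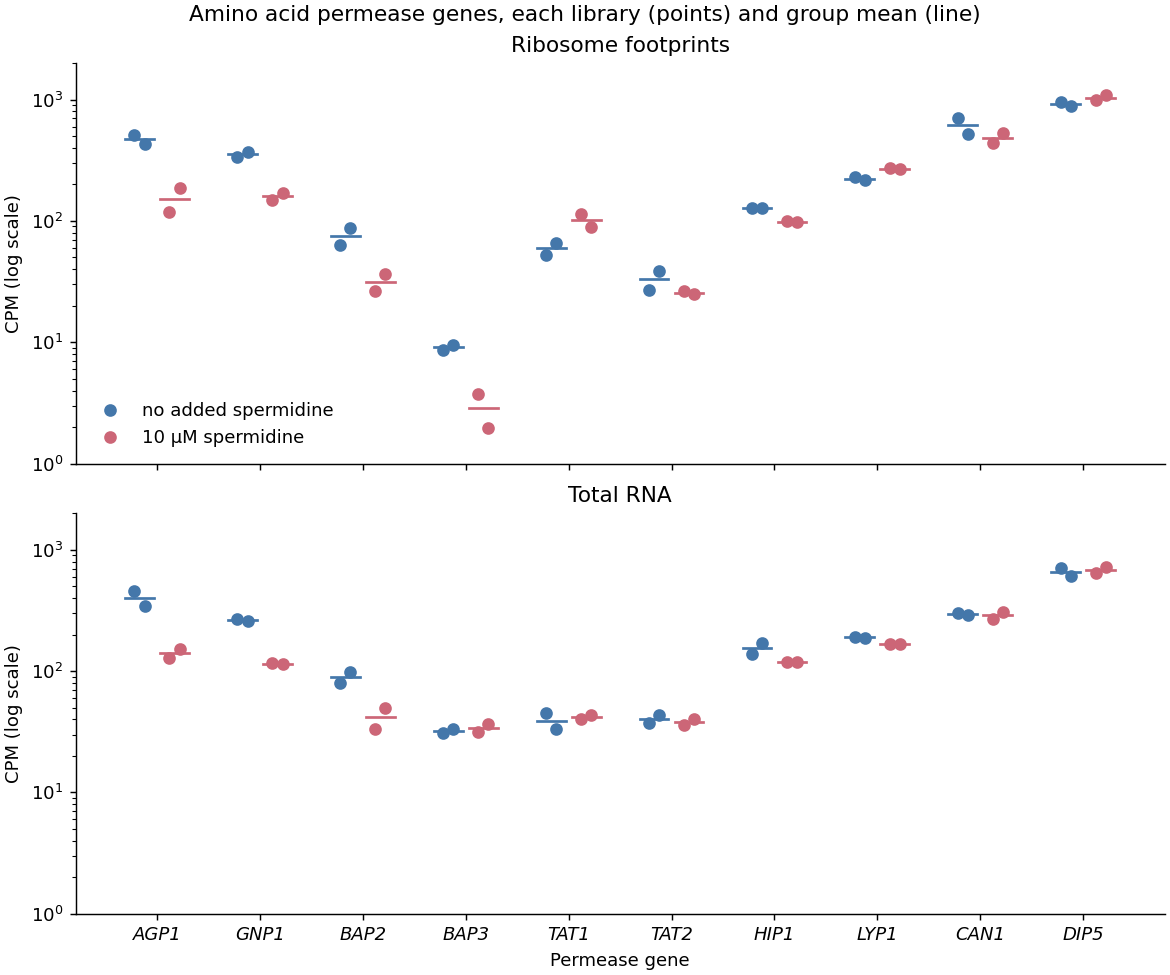
CPM of each permease gene (log axis) in footprints (top) and total RNA (bottom). Points are single libraries and lines are means of the 2 libraries of a group, without added spermidine in blue and with 10 µM in red. AGP1, GNP1 and BAP2 are lower with spermidine in both panels, BAP3 is lower in the footprint panel alone, and the TAT1 footprint points at 10 µM lie above those at 0 µM.

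AGP1 (YCL025C; chromosome III, 76018 to 77919 in the R64 assembly, minus strand) encodes a low-affinity permease that takes up most uncharged amino acids. Its footprints stood at 511 and 428 CPM in the libraries without spermidine and at 118 and 188 CPM in those with it. Its RNA stood at 459 and 343 CPM without spermidine and at 128 and 153 CPM with it. Every library with spermidine was below every library without it in both assays. Footprints fell 3.06-fold (log2 change -1.61, SE 0.22, edgeR adjusted p = 4.8e-04) and RNA fell 2.85-fold (-1.51, SE 0.22, edgeR adjusted p = 0.0015). The ratio of footprints to RNA, taken as translational efficiency, was 1.17 without and 1.09 with spermidine, a log2 difference of -0.10 (SE 0.31, edgeR adjusted p = 0.90).

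GNP1 (YDR508C; chromosome IV, 1466453 to 1468444, minus strand), whose product takes up glutamine and several other amino acids, fell in both assays with less scatter than AGP1. Footprints were 335 and 373 CPM without spermidine and 150 and 169 CPM with it. RNA was 266 and 258 CPM without spermidine and 116 and 114 CPM with it. The groups did not overlap in either assay. The footprint log2 change was -1.15 (SE 0.11, edgeR adjusted p = 6.2e-05) and the RNA log2 change was -1.19 (SE 0.11, edgeR adjusted p = 2.6e-04). Efficiency was 1.35 without and 1.39 with spermidine (log2 difference 0.04, SE 0.15, edgeR adjusted p = 0.91).

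BAP2 (YBR068C; chromosome II, 373861 to 375690, minus strand) encodes a permease of leucine, isoleucine and valine. Footprints went from 63.0 and 87.8 CPM to 26.3 and 36.2 CPM, and RNA from 80.2 and 98.7 CPM to 33.4 and 49.8 CPM. The libraries of the 2 conditions did not overlap in either assay, although replicates lay farther apart than those of GNP1. Footprints fell by 1.26 on the log2 scale (SE 0.23, edgeR adjusted p = 0.0022) and RNA fell by 1.11 (SE 0.24, edgeR adjusted p = 0.011). The RNA call was lost without R0b (log2 change -0.95, edgeR adjusted p = 0.052) and without R10a (-0.85, edgeR adjusted p = 0.083). Efficiency was 0.843 without and 0.752 with spermidine, a log2 difference of -0.16 (SE 0.34, edgeR adjusted p = 0.85).

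BAP3 (YDR046C; chromosome IV, 548762 to 550576, minus strand) encodes a second branched-chain permease, which also carries cysteine. Its RNA was at 30.9 and 33.5 CPM without and 31.3 and 36.9 CPM with spermidine (log2 change 0.08, SE 0.20, edgeR adjusted p = 0.81). Its footprints were few, with 43 and 67 reads without spermidine and 12 and 8 reads with it, or 8.66 and 9.53 CPM against 3.76 and 1.96 CPM. Footprints fell 3.28-fold (log2 change -1.71, SE 0.30, edgeR adjusted p = 0.0019), and the 2 conditions did not overlap.

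The footprint to RNA ratio of BAP3 was 0.283 without spermidine, the lowest of the 10 genes, and 0.0837 with it. The log2 difference of -1.80 (SE 0.36) passed the test narrowly (edgeR adjusted p = 0.043), and BAP3 was the 1 permease gene of the 10 called in efficiency. Over all tested genes 1.79% were called in efficiency, 49 higher and 49 lower, and the split was 37 higher and 83 lower when libraries were scaled by their totals alone. The BAP3 efficiency call was lost with limma voom (adjusted p = 0.054) and whenever any 1 of the 8 libraries was left out. In those fits the log2 difference stayed negative, from -2.29 without F10a to -1.36 without F10b, and the edgeR adjusted p ran from 0.052 to 0.16. With 12 and 8 footprint reads at 10 µM, the size of the change is imprecise.

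TAT1 (YBR069C; chromosome II, 376574 to 378433, minus strand) encodes a permease of tyrosine, tryptophan and branched-chain amino acids, and is the next annotated gene after BAP2 on the same strand, 883 bases away. It was the permease gene with the largest footprint rise of the 10. Footprints were 52.4 and 66.2 CPM without spermidine and 114 and 88.3 CPM with it, with no overlap. RNA was 45.0 and 33.1 CPM without spermidine and 40.2 and 43.6 CPM with it, and these ranges overlapped. The footprint log2 change was 0.76 (SE 0.17, edgeR adjusted p = 0.0073), opposite in sign to that of its neighbour BAP2. That call was lost without F10a (log2 change 0.57, edgeR adjusted p = 0.061). The RNA log2 change was 0.11 (SE 0.22, edgeR adjusted p = 0.78). Efficiency was 1.52 without and 2.42 with spermidine, a log2 difference of 0.65 that did not pass the test (SE 0.28, edgeR adjusted p = 0.25). An annotated antisense RNA, TBRT, covers 376610 to 378633 and so overlaps nearly all of TAT1. Whether counting used strand is not given here, so RNA reads of TAT1 and TBRT cannot be told apart.

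TAT2 (YOL020W; chromosome XV, 286172 to 287950, plus strand) encodes the high-affinity tryptophan and tyrosine permease. Footprints were 27.2 and 39.0 CPM without spermidine and 26.3 and 25.0 CPM with it, and RNA was 37.2 and 43.4 CPM against 36.0 and 40.5 CPM. The footprints with spermidine lay just below those without it, and RNA overlapped. The footprint log2 change of -0.38 was not called (SE 0.19, edgeR adjusted p = 0.13), nor was the RNA log2 change of -0.08 (SE 0.20, edgeR adjusted p = 0.83). Without F0a the footprint change was -0.61 and was called (edgeR adjusted p = 0.030), and without F0b it was -0.06. Efficiency was 0.822 without and 0.670 with spermidine (log2 difference -0.31, SE 0.28, edgeR adjusted p = 0.60).

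**Figure D2:**
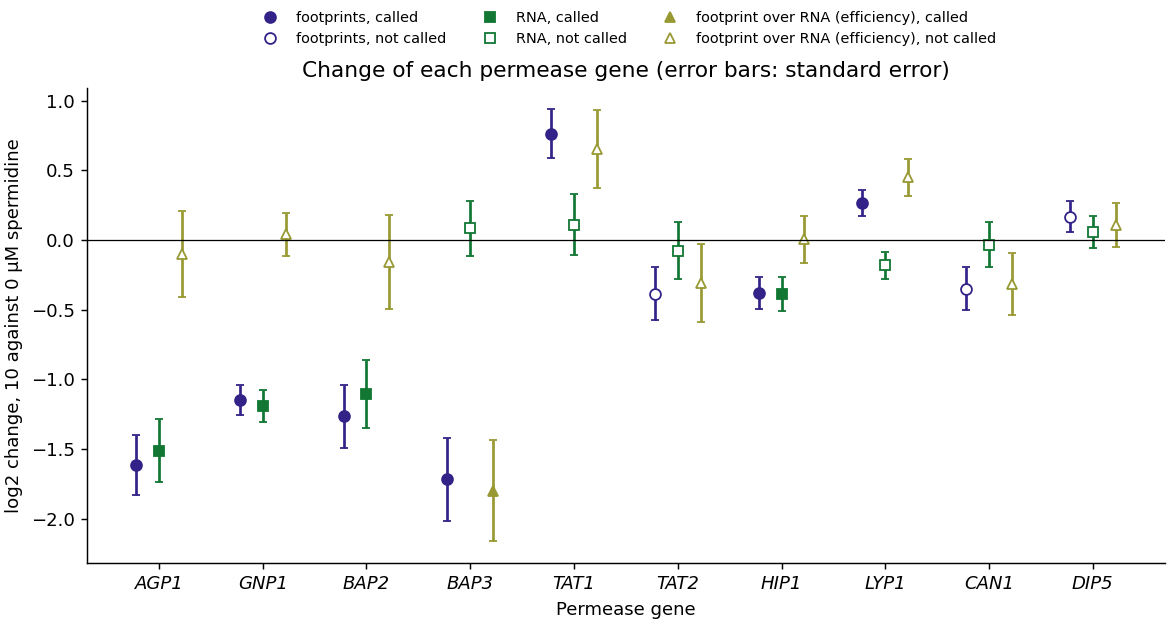
log2 change of each permease gene at 10 against 0 µM spermidine in footprints, RNA and footprint over RNA, with standard errors from the edgeR fit. Filled symbols passed the adjusted p threshold of 0.05. AGP1, GNP1 and BAP2 have footprint and RNA changes side by side below -1 and efficiency near 0, and BAP3 has footprint and efficiency changes near -1.7 and -1.8 with RNA near 0.

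HIP1 (YGR191W; chromosome VII, 880420 to 882231, plus strand), the high-affinity histidine permease gene, was slightly lower with spermidine in both assays. Footprints were 127.7 and 127.8 CPM without spermidine and 99.3 and 97.1 CPM with it, and RNA was 139 and 170.5 CPM against 119 and 118 CPM. No library with spermidine reached those without it. The log2 change was -0.38 in footprints (SE 0.12, edgeR adjusted p = 0.027) and -0.39 in RNA (SE 0.12, edgeR adjusted p = 0.047). Both calls were weak. The footprint call was lost with DESeq2 (adjusted p = 0.10) and without any 1 of the 4 footprint libraries, where values ran from -0.40 to -0.35. The RNA call was lost in every omission of a single library but that of R0a, with values from -0.53 to -0.23 over the 8 omissions. It was also lost with DESeq2 (adjusted p = 0.22), limma voom (0.056), RLE size factors (0.073), library totals (0.077), a mean count of at least 100 (0.067) and each assay fitted alone (0.088), so in 13 of 17 alternatives.

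LYP1 (YNL268W; chromosome XIV, 138550 to 140385, plus strand) encodes the lysine permease. Its footprints rose a little, from 229 and 218 CPM to 271 and 267 CPM, while its RNA went from 191 and 188 CPM to 169 and 166 CPM. The groups did not overlap in either assay, with footprints higher and RNA lower in the libraries with spermidine. The footprint log2 change was 0.27 (SE 0.09, edgeR adjusted p = 0.045) and the RNA log2 change was -0.18, which did not pass the test (SE 0.10, edgeR adjusted p = 0.22). The efficiency difference of 0.45 did not pass either (SE 0.13, edgeR adjusted p = 0.12). The footprint call was lost with library totals (adjusted p = 0.10), with DESeq2 (adjusted p = 0.14), and without any 1 of the 4 footprint libraries or without R10a or R10b. The log2 change stayed between 0.26 and 0.30 in those omissions.

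CAN1 (YEL063C; chromosome V, 31694 to 33466, minus strand), the arginine permease gene, was not called in any comparison. Its footprints were 710 and 522 CPM without spermidine and 436 and 530 CPM with it, so the libraries overlapped. Its RNA was 304 and 290 CPM against 270.5 and 309 CPM. The footprint log2 change was -0.35 (SE 0.15, edgeR adjusted p = 0.10), and without F0b it was -0.53 and called (edgeR adjusted p = 0.034), while without F0a it was -0.11. The RNA log2 change was -0.03 (SE 0.16, edgeR adjusted p = 0.92).

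DIP5 (YPL265W; chromosome XVI, 41043 to 42869, plus strand), the glutamate and aspartate permease gene, was the most abundant of the 10 in every group. Footprints were 951 and 891 CPM without spermidine and 984 and 1085 CPM with it, and RNA was 712 and 603 CPM against 648 and 722 CPM. The footprints with spermidine lay just above those without it, and RNA overlapped. The log2 changes of 0.17 in footprints (SE 0.11, edgeR adjusted p = 0.27) and 0.06 in RNA (SE 0.11, edgeR adjusted p = 0.76) did not pass the test.

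**Figure D3:**
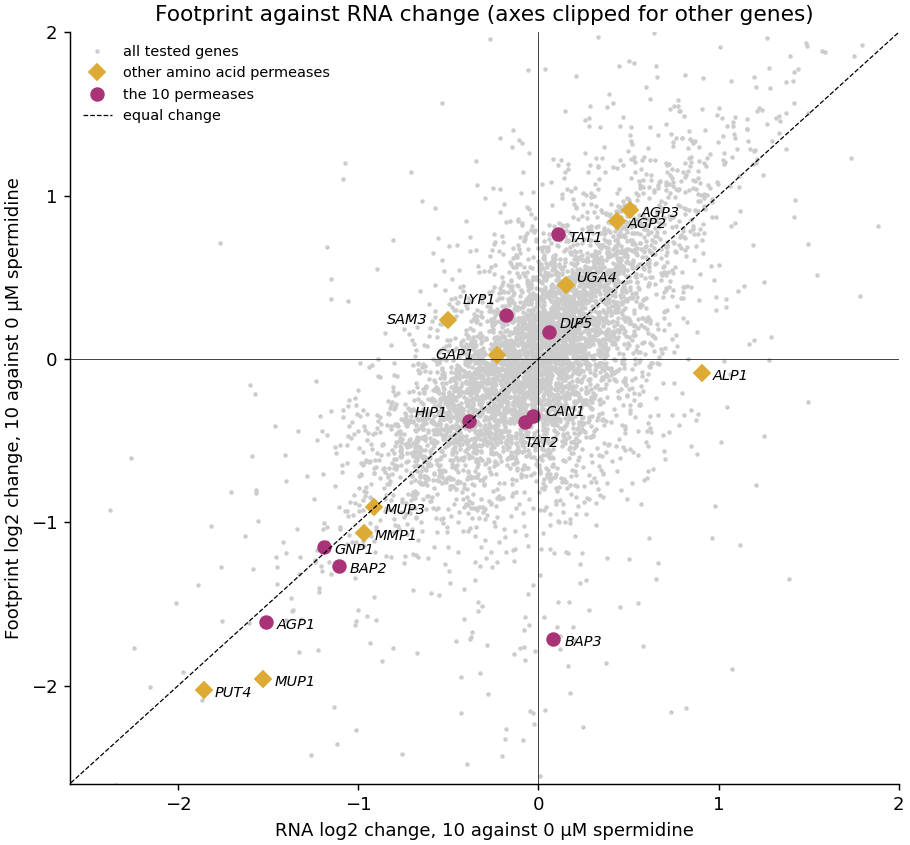
Footprint log2 change (vertical) against RNA log2 change (horizontal), 10 against 0 µM spermidine, for all tested genes (grey), the 10 permeases (circles) and 10 other amino acid permeases (diamonds). AGP1, GNP1, BAP2, MUP1, PUT4, MUP3 and MMP1 lie near the line of equal change at the lower left, and BAP3 lies below it at an RNA change of 0.08. The axes leave out some genes with larger changes.

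The 10 genes span a wide range of levels. Their annotated lengths are close, between 1773 and 1992 bases, so ordering by CPM per kilobase of gene differs little from ordering by CPM. On that length-scaled measure footprint levels without spermidine ran from 504 for DIP5 through 347 for CAN1, 247 for AGP1, 178 for GNP1, 122 for LYP1, 70.5 for HIP1, 41.2 for BAP2, 31.9 for TAT1 and 18.6 for TAT2 to 5.01 for BAP3. In this order BAP2 and TAT1 were the 1 neighbouring pair whose replicates overlapped. DIP5 then exceeded 93.2% of the genes in the table and BAP3 exceeded 7.40%.

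Supplying spermidine reordered the middle of this ranking. LYP1, at 147 CPM per kilobase of footprints, stood above AGP1 at 80.5 and GNP1 at 80.2, which overlapped with each other. AGP1 went from above 86.9% of genes to above 69.6%, and BAP2 from above 50.5% to above 24.3%. TAT1, at 54.5, came level with HIP1 at 54.2 and stood above BAP2 at 17.1. In RNA the order without spermidine was DIP5, AGP1, CAN1, GNP1, LYP1, HIP1, BAP2, TAT2, TAT1 and BAP3, and the last 3 overlapped from neighbour to neighbour. With spermidine it was DIP5, CAN1, LYP1, AGP1, HIP1, GNP1, BAP2, TAT1, TAT2 and BAP3, where BAP2, TAT1, TAT2 and BAP3 overlapped in the same way.

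Summed over the 10 genes, footprints came to 3015 and 2763 CPM without spermidine and 2230 and 2488 CPM with it. AGP1 and GNP1, set apart here after their falls were seen, together went from 824 ± 32 to 313 ± 63 CPM (SD, n = 2). The other 8 genes summed to 2065 ± 147 and 2046 ± 120 CPM. They included BAP2, BAP3 and HIP1, called lower in footprints, and TAT1 and LYP1, called higher. In RNA AGP1 and GNP1 summed to 663 ± 88 and 256 ± 17 CPM and the other 8 to 1499 ± 55 and 1417 ± 98 CPM. These sums are a description. An exact permutation test with 2 libraries a group cannot give a p below 0.333, so it cannot decide whether they differ. AGP1 held 16.9% and 15.5% of the permease footprints without spermidine and 5.31% and 7.54% with it, and DIP5 went from 31.5% and 32.2% to 44.1% and 43.6%.

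**Figure D4:**
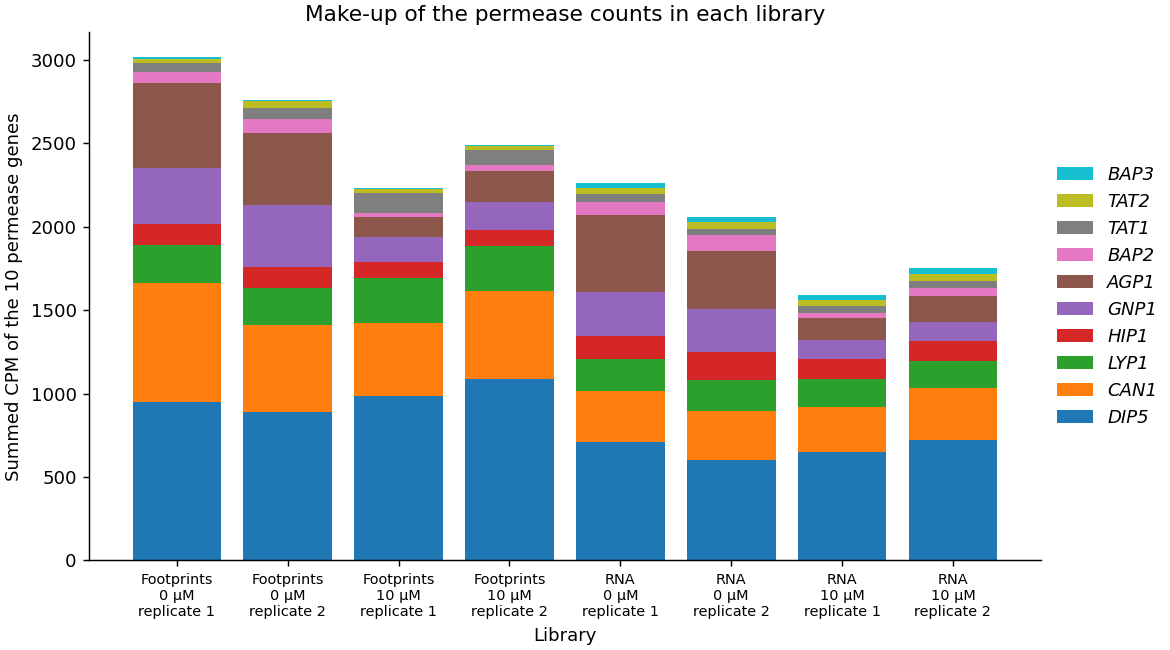
Summed CPM of the 10 permease genes in each of the 8 libraries, with each gene's part stacked in its own colour. The AGP1 and GNP1 blocks are smaller in the libraries with 10 µM spermidine of both assays, and the DIP5 block takes a larger share there.

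Footprint to RNA ratios of group means also differed between the 10 genes. No spread was taken for these ratios, and differences between genes were not tested. Without spermidine CAN1 had the highest ratio at 2.08, TAT1 followed at 1.52, and 6 of the 10 lay above the median of all tested genes, 1.01. With spermidine TAT1 had the highest ratio at 2.42, CAN1 stood at 1.67 and LYP1 at 1.61, and 6 of the 10 lay above the median of 1.04. No permease gene of the 10 was called higher in efficiency by edgeR, DESeq2 or limma voom. At an unadjusted p under 0.05, 2 were higher with edgeR, 0 with DESeq2 and 1 with limma voom. Of all 5488 tested genes, 580, 263 and 571 were higher at that threshold with these tools.

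Among 5488 tested genes, those with 8-library profiles nearest to BAP3, by Euclidean distance between log2 CPM centred on each gene's mean, were ZRG8 (distance 0.51), SPO75 (0.76), SPS18 (0.93) and PRY3 (0.95). ZRG8 footprints changed by -1.49 and its RNA by 0.11 on the log2 scale, and those of SPO75 by -1.69 and 0.12, of SPS18 by -1.16 and 0.01 and of PRY3 by -1.02 and 0.32. These genes were chosen for this profile, so their changes are a description. Nearest to TAT1 were GPP2 (distance 0.40), YNL108C (0.47), TRR1 (0.49) and PHB2 (0.49). GPP2, a glycerol-3-phosphate phosphatase gene, changed by 0.73 in footprints and 0.25 in RNA, and TRR1, the cytosolic thioredoxin reductase gene, by 0.54 and 0.07.

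Other amino acid permeases also moved unevenly. Of 10 listed, 4 fell and 2 rose in footprints, against 19.8% and 18.7% of all tested genes. In RNA 5 fell and 1 rose, against 13.5% and 8.45%. The median log2 change of these 10 was -0.03 in footprints and -0.37 in RNA, beside -0.02 and 0.00 over all genes. The RNA calls numbered 3, all lower, without R0a or without R10a. PUT4, the proline permease gene, went from 590 and 450 CPM to 128 and 127 CPM in footprints, and its log2 change was -2.03 in footprints (edgeR adjusted p = 6.3e-05) and -1.86 in RNA (edgeR adjusted p = 3.6e-04). MUP1, the high-affinity methionine permease gene, fell by 1.96 in footprints (edgeR adjusted p = 5.6e-05) and 1.53 in RNA (edgeR adjusted p = 5.6e-04). MUP3, a low-affinity methionine permease gene, and MMP1, the S-methylmethionine permease gene, changed by -0.91 and -1.06 in footprints and by -0.91 and -0.97 in RNA. The MUP3 footprint call was lost without F10a (log2 change -0.68) and its RNA call without R0a (-0.80) or R10a (-0.59). The MMP1 RNA call was lost without R10b (-0.86).

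AGP2, a member of the same family needed for carnitine and polyamine uptake, rose by 0.84 in footprints (edgeR adjusted p = 7.9e-04), from 49.4 and 41.4 to 81.4 and 81.0 CPM. Its RNA rise of 0.43 was called (edgeR adjusted p = 0.044) but was lost in 9 of 17 alternatives, among them DESeq2, limma voom and the omission of any 1 RNA library or of F10a or F10b, with values from 0.35 to 0.52. AGP3 footprints rose by 0.91, from 21 and 28 reads to 29 and 27 reads in shallower libraries (edgeR adjusted p = 0.026). That call was lost by DESeq2 and in omissions of F0a, F0b or F10a, where the log2 change was 0.95, 0.89 and 0.69. GAP1, the general amino acid permease gene, added after its values were seen, differed by 0.02 in footprints and -0.23 in RNA and was not called. SAM3, the S-adenosylmethionine permease gene, fell by 0.50 in RNA and was called higher in efficiency by 0.74, but the RNA call was lost without R0a (-0.40) or R10a (-0.45). Its efficiency call was lost in 10 of 16 alternatives, with values from 0.66 to 0.87. These included all omissions of a single library but that of R0b.

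Of 15 listed genes of the SPS amino acid sensing pathway, 7 fell and 1 rose in footprints, against 19.8% and 18.7% of all tested genes. In RNA 4 fell and none rose, against 13.5% and 8.45%. The list's median log2 change was -0.13 in footprints and -0.19 in RNA, beside -0.02 and 0.00 over all genes. Footprint calls dropped to 4 with DESeq2 and 5 after removal of a length trend, and were also fewer without any 1 footprint library. RNA calls dropped to 2 with DESeq2, and were also fewer without R0a or R10b. Over all tested genes, DESeq2 called 1478 in footprints, against 2113 with edgeR, and 840 in RNA, against 1203. Removal of the length trend left 2106 footprint calls over all genes. STP1, a transcription factor that the sensor activates, went from 202 and 205 CPM to 125 and 130 CPM in footprints (log2 change -0.67, edgeR adjusted p = 6.1e-04) and from 125 and 121 CPM to 78.3 and 81.1 CPM in RNA (-0.63, edgeR adjusted p = 0.0027). Both STP1 calls held in all 17 alternatives. Its paralog STP2 fell by 0.41 in footprints and by 0.49 in RNA, both lost with DESeq2. The footprint call was also lost without F0a (-0.38) or F10a (-0.37), and the RNA call without R0a (-0.45) or R10b (-0.47). TUP1, a general corepressor, fell by 0.43 in footprints and by 0.53 in RNA. Its footprint call was lost without F0b (-0.40) or F10b (-0.37).

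YCK2, a casein kinase gene, fell by 0.50 in footprints and by 0.51 in RNA, and lost the footprint call without F10a (-0.43) and the RNA call with DESeq2 (-0.46) or without R0a (-0.41) or R10b (-0.44). DAL81, a transcription factor that acts with Stp1 and Stp2, SSY5, the protease of the sensor, and CYC8, the partner of Tup1, were called lower in footprints at -0.45, -0.32 and -0.31. All 3 calls were lost with DESeq2, after removal of a length trend, and without F0a, F10a or F10b, and those of SSY5 and CYC8 also without F0b. The SSY5 call was further lost without R0a or R0b, and the CYC8 call at a mean count of at least 100. Over the alternatives DAL81 ran from -0.55 to -0.31, SSY5 from -0.37 to -0.25 and CYC8 from -0.36 to -0.17. PTR2, the di- and tripeptide transporter gene and another target of the sensor, rose by 1.14 in footprints (edgeR adjusted p = 0.0047), from 27 and 35 reads to 33 and 51 reads in shallower libraries, or 5.44 and 4.98 to 10.3 and 12.5 CPM. The count of RNA rises in this list was 0 with edgeR, DESeq2 and limma voom, and 0 at an unadjusted edgeR p under 0.05. It was not 0 without R0b or without R10a. Over all tested genes 464, 367 and 417 rose in RNA with these tools, and 823 at that unadjusted threshold.

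**Figure D5:**
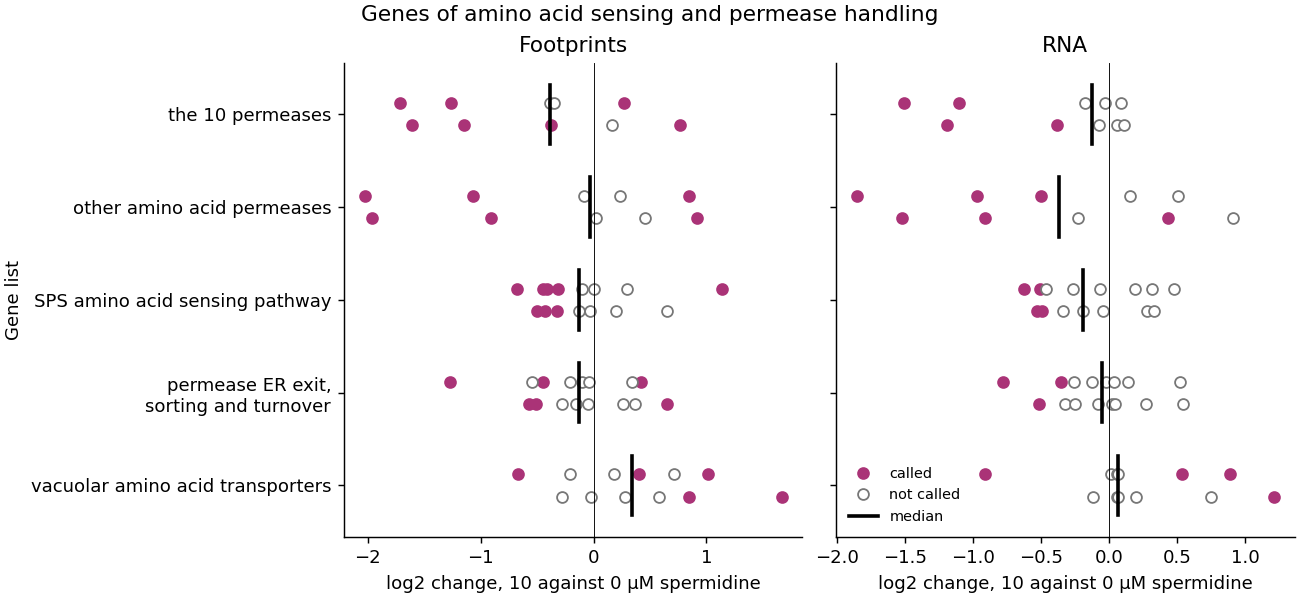
log2 change at 10 against 0 µM spermidine in footprints (left) and RNA (right) for the 10 permeases and 4 lists of related genes. Filled points passed the adjusted p threshold of 0.05, open points did not, and bars mark medians. The footprint median is -0.38 for the 10 permeases and 0.34 for the vacuolar transporters.

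Genes that carry permeases to and from the cell surface were mixed. Of 16 listed, 4 fell and 2 rose in footprints, against 19.8% and 18.7% of all tested genes. In RNA 3 fell and none rose, against 13.5% and 8.45%. The median log2 change of this list was -0.13 in footprints and -0.06 in RNA, beside -0.02 and 0.00 over all genes. No rise in RNA was called by DESeq2 or limma voom, against 367 and 417 of all tested genes. With RLE size factors and with library totals 1 rise and 2 falls were called. At an unadjusted edgeR p under 0.05, 1 gene was higher, against 823 of all tested genes. With DESeq2 footprint calls dropped to 3 and RNA calls to 1, where calls over all tested genes dropped to 1478 and 840. Footprint calls were also fewer without any 1 footprint library, and RNA calls without any 1 library but R0b. SHR3, which encodes the permease chaperone of the endoplasmic reticulum, fell in RNA from 167 and 159 CPM to 125 and 102 CPM, and rose in footprints from 98.1 and 104 CPM to 123 and 148 CPM. Its log2 changes were -0.52 in RNA (edgeR adjusted p = 0.024), 0.42 in footprints (edgeR adjusted p = 0.029) and 0.94 in efficiency (edgeR adjusted p = 0.043). The SHR3 RNA call was lost with DESeq2 and without R0a (-0.49) or R10b (-0.38). Its footprint call was lost with library totals, DESeq2 and without F0a (0.38), F0b (0.49) or F10b (0.28). Its efficiency call was lost in 8 of 16 alternatives, namely library totals and every omission of a single library but that of R0b, with values from 0.80 to 1.098 over the 16.

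ERV14, a cargo receptor gene for export from the endoplasmic reticulum, fell by 0.78 in RNA (edgeR adjusted p = 9.9e-04) and differed by -0.10 in footprints. Its efficiency rise of 0.68 (edgeR adjusted p = 0.049) was lost in 11 of 16 alternatives (0.52 to 0.77), among them every omission of a single library but that of R0a. BUL1, an adaptor of Rsp5 that directs permeases to turnover, fell by 1.27 in footprints (edgeR adjusted p = 1.1e-04), from 186 and 157 CPM to 75.5 and 66.3 CPM, with RNA at 84.1 and 100.1 against 77.3 and 76.9 CPM. Its efficiency was called lower by 1.02 (edgeR adjusted p = 0.039), a call lost without any 1 library but F0b or R0b (-1.12 to -0.87 over the alternatives). The arrestin-like adaptor gene LDB19 fell by 0.57 in footprints (edgeR adjusted p = 0.0040), and its RNA log2 change was -0.13. RSP5, the ubiquitin ligase gene, fell by 0.45 in footprints and by 0.35 in RNA. The footprint call was lost without F0a (-0.40) or F10b (-0.37) and the RNA call in 13 of 17 alternatives, among them every omission of a single library but that of R0b (-0.41 to -0.31 over the alternatives).

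The adaptor genes ALY1 and CSR2 were also called in footprints. ALY1 changed by -0.51 (edgeR adjusted p = 0.012). DESeq2 (-0.50) did not call it, nor did the fits without F0b (-0.42), F10a (-0.51) or F10b (-0.50). CSR2 changed by 0.65 (edgeR adjusted p = 0.019), from 50 and 82 reads to 56 and 69 reads in shallower libraries. DESeq2 (0.67) did not call it, nor did the fits without F0a (0.56), F10a (0.62) or F10b (0.68).

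Of 12 tested amino acid transporters of the vacuolar membrane, 4 rose and 1 fell in footprints, against 18.7% and 19.8% of all tested genes. In RNA 3 rose and 1 fell, against 8.45% and 13.5%. Their median log2 change was 0.34 in footprints and 0.06 in RNA, beside -0.02 and 0.00 over all genes. VBA1, which carries basic amino acids into the vacuole, rose by 1.67 in footprints (edgeR adjusted p = 2.2e-05) and by 1.21 in RNA (edgeR adjusted p = 3.9e-04), from 41.1 and 42.4 CPM to 147 and 119 CPM in footprints. AVT7 rose by 1.01 in footprints and by 0.89 in RNA, and ATG22, which releases amino acids from the vacuole, by 0.84 and 0.53. The ATG22 RNA call was lost without R0a (0.41), R10a (0.58) or R10b (0.48). AVT3 rose by 0.41 in footprints, a call lost with library totals, DESeq2 and without F0a (0.48), F0b (0.35) or F10a (0.31). YPQ1 fell by 0.67 in footprints and by 0.91 in RNA, and the footprint call was lost without F10b (-0.61). No gene of this list or of the SPS list was called in efficiency by edgeR, DESeq2 or limma voom. Of all 5488 tested genes, 98, 136 and 87 were called with these tools, so few calls are expected in lists of this size. At an unadjusted edgeR p under 0.05, 1 gene of each list passed, against 1015 of all tested genes. Without R0a edgeR called 1 gene of the SPS list higher in efficiency.

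AGP1 with GNP1, and BAP2 with BAP3, are close paralogs. How the authors' counting treated reads that match several genes is likewise not given, so their separate values carry that uncertainty. BAP2 and BAP3 had RNA log2 changes of -1.11 and 0.08. The difference between these changes was not tested.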

How the data were processed

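The authors deposited whole-number read counts per gene for 8 libraries in 1 table, used here unnormalized. Builds R64 and sacCer3, and Bowtie 1.1.2 and 1.2.2, edgeR and cutadapt, appear in the submitters' processing notes without roles. The counted region, strand use and treatment of multiply matching reads are not stated in what was used here. The smallest count was 1, and 3 lines without gene name held no counts. Names, positions and lengths came from the RefSeq R64 gene table, which paired all but 2 IDs; strands were read from the W or C of systematic names.

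Samples were grouped by title. In R 4.3.3, edgeR 4.0.16 with filterByExpr (minimum count 10, minimum total 15) and TMM scaling fitted 1 quasi-likelihood model with 4 group means, leaving 4 residual degrees of freedom. Contrasts were footprints, RNA and their difference (efficiency), adjusted over all tested genes. SE is the log2 change over the root of F. Efficiency ratios divide group mean CPM. Alternatives used DESeq2 1.42.0, limma 3.58.1 voom, other scalings and filters, each assay alone, a block, and omission of each library. A removed length trend was added after seeing the data. Scripts were tested on simulated data.

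Members and gene lists were chosen with earlier results of these data known. All 10 members are named, and every list gene called in any contrast; GAP1 was added after its values were seen. The genes nearest in profile, with the 10 members left out, were taken for the members with the lowest and highest footprint change. The listed vacuolar gene VBA3 was not analysed here.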

Additional observations from a re-analysis of the deposited data

How the results depend on the processing

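Of 497 recomputed values for the 10 permeases (30 values, each under up to 17 alternatives), 428 kept their direction and side of the threshold, 38 lost a call, 2 gained one and 29 changed sign. The smallest adjusted p of a value with changed sign was 0.68. The footprint calls of AGP1, GNP1, BAP2 and BAP3 and the RNA calls of AGP1 and GNP1 held in every alternative that tested them. BAP3 was not tested at a mean count of at least 100.

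Over omissions of 1 library, the permeases called numbered 4 to 7 in footprints (4 without footprint replicate 1 at 10 µM), 2 to 4 in RNA (2 without RNA replicate 2 at 0 µM or replicate 1 at 10 µM) and 0 in efficiency (2 to 4 at an unadjusted edgeR p under 0.05). The efficiency count was also 0 with limma voom and at a mean count of at least 100. Over all genes, omissions left 1392 to 2218 footprint calls (1392 without footprint replicate 2 at 0 µM), against 2113 with all libraries. RNA calls numbered 669 to 1080, against 1203, with 771 and 669 without RNA replicate 1 or 2 at 10 µM. Efficiency calls numbered 20 to 151, against 98. These were 45 and 64 without footprint replicate 1 or 2 at 0 µM, 34 and 39 without those at 10 µM, 151 without RNA replicate 2 at 0 µM, and 49 and 20 without RNA replicate 1 or 2 at 10 µM.

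Replicate numbers are shared between groups but the labels do not say what they mark. Deviations of same-numbered libraries correlated across genes with r from 0.0348 to 0.232. With the replicate number as a block, efficiency calls rose to 181, permease counts stayed at 7, 4 and 1, and no permease call changed.

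No value that changed sign was called with all libraries, and the largest in size was TAT2 efficiency, -0.31, which was 0.015 without footprint replicate 2 at 0 µM. Over omissions, efficiency ran from -0.48 to 0.19 for AGP1, -0.049 to 0.15 for GNP1, -0.42 to 0.16 for BAP2, -0.53 to 0.015 for TAT2 and -0.12 to 0.17 for HIP1. RNA ran from -0.043 to 0.20 for BAP3, -0.11 to 0.34 for TAT1, -0.18 to 0.039 for TAT2, -0.13 to 0.060 for CAN1 and -0.058 to 0.18 for DIP5. GNP1 efficiency was -0.042 with library totals. HIP1 efficiency was -0.032 with RLE size factors, -0.078 with library totals, -0.032 with DESeq2 and -0.00119 with limma voom. CAN1 RNA was 0.015 with RLE size factors, 0.0049 with library totals, 0.011 at a mean count of at least 100 and 0.015 with DESeq2. The causes were not tested. Footprint reads per library were few, 8 to 67, for BAP3, AGP3 and PTR2, and 50 to 82 for CSR2.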
